A study of Homo sapiens with 21 samples.

Results

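S9.6 is an antibody that binds DNA-RNA hybrids, and DRIP-seq sequences the DNA it pulls down. The peaks described here are those of the 6 S9.6 libraries whose summit, the base of highest signal, lay between 1000 bp before and 5000 bp after the end of a gene and more than 1000 bp from every gene start. They numbered 47058 of 253906 peaks on chromosomes 1 to 22 and X, summed over the libraries. Gene positions were those of the deposited count table (hg38), and 25989 of its 26485 genes had 1 locus on these chromosomes and were used.

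All samples are MDA-MB-436 cells, a human breast cancer line, carrying a doxycycline-inducible lentiviral hairpin. The tested cells carry a hairpin against RNF8 (shRNF8), a ubiquitin ligase of the DNA damage response, and the control cells carry a hairpin labelled shScr, whose condition the labels give as WT. The S9.6 libraries were 4 shRNF8 and 2 shScr. RNase was applied to a companion library of every one, and RNA was sequenced in 3 shRNF8 and 3 shScr samples. The labels do not say whether replicates came from separate cultures, how many hairpin sequences or clones were used, or whether shScr cells were given doxycycline, so p-values measure the spread between these libraries, which may be technical.

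At the 3′ end of a gene the transcript is cleaved at the poly(A) site while RNA polymerase II goes on past it. The remaining RNA is degraded by the exonuclease XRN2, and hybrids of the nascent RNA with its template, known as R-loops, have been described downstream of human genes, where helicases can remove them. RNF8 has been described as a ligase of XRN2. Whether a neighbouring gene lies downstream, and on which strand, sets what the polymerase meets after it passes the end.

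Each gene end was placed in a class by its nearest downstream neighbour. Of all ends, 4431 were convergent (the neighbour within 10000 bp runs towards the gene), 3383 were tandem (it runs the same way) and 12443 were isolated (no neighbour within that distance). The other 5732 ends lay inside another gene, which was on the opposite strand alone for 3201 of them. The median gap to the neighbour was 2656 bp at convergent and 3724 bp at tandem ends. RNA levels are in CPM, counts scaled to the library total, and genes with a mean of at least 1 CPM are called expressed, and they made up 3058 convergent, 2103 tandem and 6087 isolated ends.

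Some gene-end peaks lay on starts of transcripts that RefSeq lists and the count table does not. Between 1.25% and 1.74% of the gene-end peaks of a library had their summit within 1000 bp of such a start, and 125 of these starts lay under gene-end regions found in all 6 libraries. The sequences of 4 of them are shown because they are the places where the annotation itself decides whether a peak counts as a gene end. They are the 250 bases before the start, 5′ to 3′ on the strand of the listed transcript, from RefSeq (GRCh38.p14), for windows that overlap no exon of the count table, and capitals mark runs of 3 or more G. The first pair lies past isolated ends, the third past a tandem end and the fourth past a convergent end.

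LOC105370943: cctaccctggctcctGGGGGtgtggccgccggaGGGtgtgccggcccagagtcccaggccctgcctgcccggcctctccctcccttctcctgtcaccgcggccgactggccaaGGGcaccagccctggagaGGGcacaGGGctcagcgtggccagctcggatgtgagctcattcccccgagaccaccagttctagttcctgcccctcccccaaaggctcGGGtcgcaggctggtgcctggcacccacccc
LOC105370790: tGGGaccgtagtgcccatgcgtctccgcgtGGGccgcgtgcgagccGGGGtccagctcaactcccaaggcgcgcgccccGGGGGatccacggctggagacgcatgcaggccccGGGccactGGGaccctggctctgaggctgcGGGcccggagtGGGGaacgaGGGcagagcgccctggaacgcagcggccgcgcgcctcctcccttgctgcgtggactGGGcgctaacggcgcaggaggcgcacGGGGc
LOC107985317: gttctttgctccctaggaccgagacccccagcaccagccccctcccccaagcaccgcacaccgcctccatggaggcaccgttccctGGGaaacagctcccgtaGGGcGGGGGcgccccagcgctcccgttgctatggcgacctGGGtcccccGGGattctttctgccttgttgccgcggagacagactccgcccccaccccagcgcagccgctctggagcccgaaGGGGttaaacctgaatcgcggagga
LOC124902798: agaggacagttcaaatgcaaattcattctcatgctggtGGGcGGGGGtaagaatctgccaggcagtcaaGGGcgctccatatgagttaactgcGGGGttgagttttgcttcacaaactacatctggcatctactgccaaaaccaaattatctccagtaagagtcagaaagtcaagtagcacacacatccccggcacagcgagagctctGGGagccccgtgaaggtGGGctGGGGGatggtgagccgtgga

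The window of LOC105370943, on the plus strand at chr15:40906559-40906808, starts its transcript 2834 bp past the end of VPS18, and a gene-end summit lay in this window or the 50 bases after it in 5 of 6 libraries. LOC105370790, on the minus strand at chr15:41486370-41486619, starts 2806 bp past the end of RTF1, with a summit in 4 libraries. LOC107985317, on the minus strand at chr19:35869358-35869607, starts 2211 bp past the end of KIRREL2, with a summit in 2 libraries, and LOC124902798, on the plus strand at chr11:134376546-134376795, starts 472 bp past the end of GLB1L2, also with a summit in 2 libraries. Their GC content was 71.2%, 75.2%, 68.0% and 52.4%, and they held 6, 11, 6 and 7 runs of the motif GGG or longer on the printed strand. The median over the 250 bases before all 35116 RefSeq starts given was 58.0% GC and 5 such runs, and 94.7% of these windows held at least 1 run. Before the 125 unlisted starts under gene-end regions found in all 6 libraries, the medians were 63.2% GC and 7 runs, and 95.2% held at least 1 run.

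The share of peaks that lay at gene ends did not separate the hairpins. Gene-end peaks numbered 6236, 6804, 8304 and 8083 in shRNF8 libraries 1 to 4, against 9570 and 8061 in shScr libraries 1 and 2. As shares of all peaks these were 19.3%, 19.95%, 16.3% and 16.7% in shRNF8 cells, against 19.4% and 20.9% in shScr cells. shRNF8 libraries 3 and 4 held the lowest shares and the groups overlapped. The mean was 18.04% ± 1.84 in shRNF8 libraries (SD, n = 4) and 20.1% ± 1.01 in shScr libraries (SD, n = 2), a difference of -2.09 points with p = 0.2 in a two-sided exact permutation test (15 arrangements of the labels). With 4 libraries against 2 this test cannot give a p below 0.0667, so no comparison of hairpins made with it here can pass 0.05.

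The libraries differed in depth and in the breadth of their peaks. The lowest local background shared by several peaks, a measure of depth recovered from the authors' fold and p of each peak, was 0.698, 0.948, 1.36 and 1.48 reads in shRNF8 libraries 1 to 4, against 1.22 and 0.840 in shScr libraries. All peaks together covered 39.5, 34.4, 83.5 and 79.0 Mb in shRNF8 libraries 1 to 4, against 47.6 and 43.4 Mb in shScr libraries. Of the gene-end peaks, 7.52%, 4.61%, 11.2% and 10.6% were at least 5000 bp wide in shRNF8 libraries, against 4.24% and 5.28% in shScr libraries. shRNF8 libraries 3 and 4 had the broadest peaks, and the peak names inside their lists carry the stems of libraries 1 and 2. The labels number them as replicates of their own, and whether they come from the same material as libraries 1 and 2 is not given in the sources used here; if they do, there are fewer independent libraries than counted below. Each deposited peak has 1 summit, so a broad peak over a gene end counts only where its summit falls.

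Summits were denser at gene ends than in gene bodies and less dense than at gene starts in all 6 libraries. Per Mb of usable sequence, gene ends held 48.5, 52.9, 64.6 and 62.8 summits in shRNF8 libraries, against 74.4 and 62.7 in shScr libraries. Gene bodies held 14.8, 15.6, 25.7 and 24.6 per Mb in shRNF8 libraries, against 22.7 and 17.8 in shScr libraries. Gene starts, defined as 1000 bp to either side, held 106.6 to 117.6 per Mb in shRNF8 libraries, against 139.3 and 107.7 in shScr libraries. Ends exceeded bodies by 40.8 summits per Mb on average over the 6 libraries (SD 6.44), and the exact sign-flip permutation test gave p = 0.0312, the smallest that 6 libraries allow (adjusted p = 0.0352 over 9 such within-library comparisons). Expression, gene length and neighbours were not held fixed here. Ends with no neighbour within 10000 bp, over all genes, held 24.0, 24.1, 40.3 and 37.9 per Mb in shRNF8 libraries, against 42.3 and 34.1 in shScr libraries.

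Genes with a peak at their start more often had one at their end. Among 8808 expressed genes of the 3 classes that were long enough for the comparison, an end peak was found in 33.2%, 39.7%, 43.1% and 42.5% of those with a start peak in shRNF8 libraries, against 46.3% and 46.5% in shScr libraries. Without a start peak the shares were 18.3%, 16.3%, 24.6% and 25.0% in shRNF8 libraries, against 25.1% and 24.3% in shScr libraries. The difference averaged 19.6 points and was positive in 6 of 6 libraries (exact sign-flip permutation p = 0.0312, adjusted p = 0.0352). Expression level, which goes with peaks at both places, was not held fixed here.

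**Figure D1:**
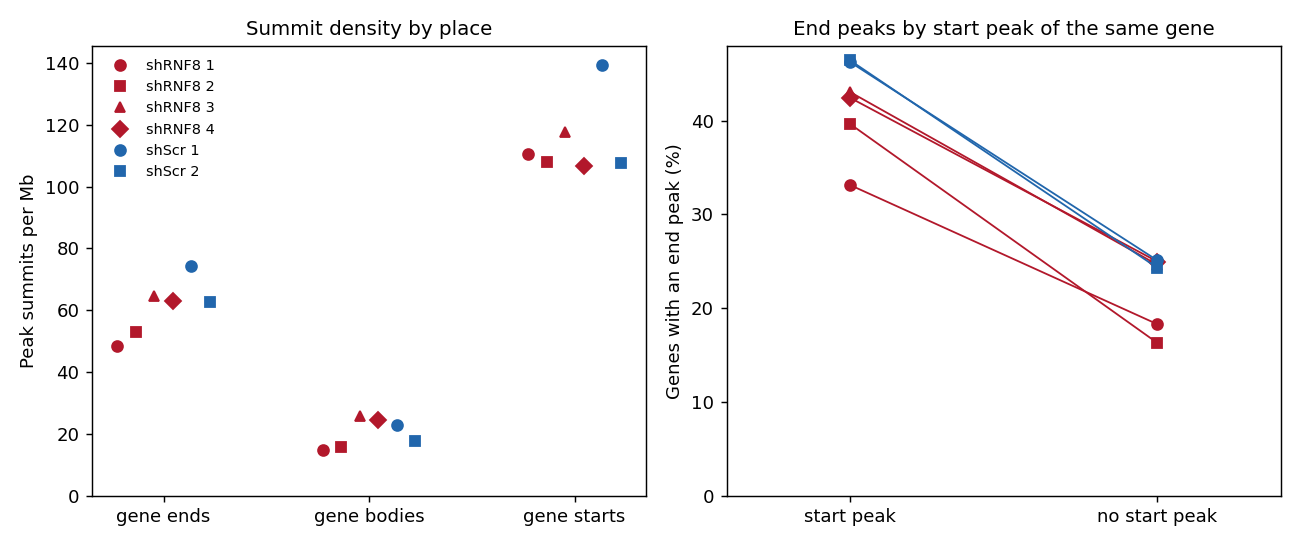
Left, peak summits per Mb (vertical axis) at gene ends, in gene bodies and at gene starts, 1 point per S9.6 library. Right, percent of genes with an end peak among those with and without a start peak, with a line for each library. Gene ends lie between bodies and starts in every library, and each line is higher at its left, where 33.2% to 46.5% of genes with a start peak had an end peak, than at its right, where 16.3% to 25.1% of those without one did.

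Gene-end peaks were intermediate in width too. The median gene-end peak was 685, 613, 748 and 757 bp wide in shRNF8 libraries, against 578 and 674 bp in shScr libraries. Within a library the median gene-end peak differed by -108 bp from the median start peak and by 123.9 bp from the median peak elsewhere, on average, and so was narrower than at starts and wider than elsewhere. Both differences held the same sign in 6 of 6 libraries (exact sign-flip permutation p = 0.0312 each, adjusted p = 0.0352). The median fold enrichment of gene-end peaks over their local background, a value given by the authors, was 4.79 to 5.89 in shRNF8 libraries, against 5.41 and 5.55 in shScr libraries.

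Counted by summits, convergent ends carried peaks most often, tandem ends less often and isolated ends least often, in every library. Among expressed genes, 43.0%, 43.7%, 46.7% and 46.5% of convergent ends had a peak in shRNF8 libraries 1 to 4, against 54.3% and 51.7% in shScr libraries. Tandem ends reached 34.4%, 35.9%, 39.8% and 39.2% in shRNF8 libraries, against 44.4% and 40.8% in shScr libraries. Isolated ends reached 16.0%, 15.05%, 24.8% and 23.8% in shRNF8 libraries, against 24.6% and 22.3% in shScr libraries. The order of the 3 classes was the same in all 6 libraries.

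The convergent class exceeded the isolated class by 26.5 points (SD 3.42, range 21.9 to 29.7, higher in 6 of 6 libraries; exact sign-flip permutation p = 0.0312, adjusted p = 0.0352). The tandem class exceeded the isolated class by 17.97 points (SD 2.34, higher in 6 of 6, the same p values), although its windows had fewer usable bases, 4636 on average against 5979 at isolated ends, because the neighbour's start takes a part of them. The convergent class exceeded the tandem class by 8.57 points (SD 1.55, higher in 6 of 6, the same p values), a comparison added after the shares were seen and one whose sign depends on how peaks are counted. When an end counted as soon as any base of its window lay under a peak, tandem ends reached 55.4%, 53.9%, 66.0% and 65.1% in shRNF8 libraries, against 63.6% and 61.10% in shScr libraries. Convergent ends then reached 53.3%, 50.9%, 64.2% and 63.4% in shRNF8 libraries, against 62.6% and 61.02% in shScr libraries, and lay below tandem ends in all 6. That count also takes in peaks at the start of a tandem neighbour, which the summit count leaves out, and it gave 35.5 points for convergent minus isolated and 37.1 points for tandem minus isolated ends. Within the same chromosome and the same range of RNA level the differences from isolated ends were 21.99 points for convergent and 11.6 points for tandem ends, so the tandem difference was smaller by over 1.5 times. With any 1 library left out, the other 5 cannot give a p below 0.0625. Without shRNF8 libraries 3 and 4 the differences were 28.7 points for convergent and 19.4 points for tandem ends, with p = 0.125 each in the exact sign-flip permutation test, the smallest that 4 libraries allow. Base composition around the ends was not tested, since no genome sequence was used.

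Facing gene ends share part of their windows. A summit between facing ends counts for both genes, and 15.9% to 20.6% of gene-end peaks in shRNF8 libraries, against 18.9% and 19.1% in shScr libraries, lay in the windows of more than 1 gene end. Per Mb of usable window, which counts such a summit for each end too, expressed convergent ends held 127.2, 142.1, 135.1 and 136.6 summits in shRNF8 libraries, against 186.8 and 162.2 in shScr libraries. Expressed isolated ends held 44.2, 43.2, 73.2 and 68.9 in shRNF8 libraries, against 77.2 and 63.6 in shScr libraries.

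Counted by summits in the lists as deposited, the hairpins did not overlap at convergent ends. Over all genes, 36.2%, 37.2%, 40.6% and 40.0% of convergent ends had a peak in shRNF8 libraries, against 45.8% and 43.4% in shScr libraries, and every shRNF8 library lay below both shScr libraries. The difference was -6.13 points, with an exact permutation p = 0.0667, the smallest the design allows, and 0.2 after adjustment over the 3 classes. Tandem ends over all genes had a peak in 25.4% to 30.2% in shRNF8 libraries, against 32.6% and 29.4% in shScr libraries, a difference of -3.02 points (exact permutation p = 0.267, adjusted p = 0.4). Isolated ends had a peak in 8.34% to 13.5% in shRNF8 libraries, against 13.5% and 11.9% in shScr libraries, a difference of -1.83 points (exact permutation p = 0.467, adjusted p = 0.467). With pileups and backgrounds recovered from fold and p, scaled to the shallowest library, and peaks kept at a -log10 p of at least 4, the differences were -6.97 points at convergent, -3.94 at tandem and -2.59 at isolated ends, and the hairpins separated in all 3 classes (exact permutation p = 0.0667 each, also after adjustment). As deposited, the tandem difference was -1.39 points without shScr library 1 and -4.64 without shScr library 2. The isolated difference was -0.997 points without shRNF8 library 2, -1.08 without shRNF8 library 1 and -1.06 without shScr library 1.

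That direction did not hold when a gene end was counted by whether its last base lay under a peak. Among expressed genes, 28.0%, 23.1%, 42.2% and 41.6% of convergent ends were then covered in shRNF8 libraries, against 28.4% and 29.7% in shScr libraries. Here shRNF8 libraries 3 and 4, the ones with the broad peaks, were the highest and shRNF8 library 2 the lowest. Over all genes the difference by this count was 3.84 points at convergent, 4.93 points at tandem and 1.02 points at isolated ends, each positive (adjusted p = 0.667 in exact permutation tests). The classes kept their order by this count in all 6 libraries, and expressed convergent ends exceeded isolated ends by 24.1 points on average. When an end counted as soon as any base of its window was under a peak, 49.3% of convergent ends counted in shRNF8 libraries and 52.2% in shScr libraries, a difference of -2.85 points (exact permutation p = 0.667). The part that the breadth of peaks plays in the difference between hairpins was not tested.

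**Figure D2:**
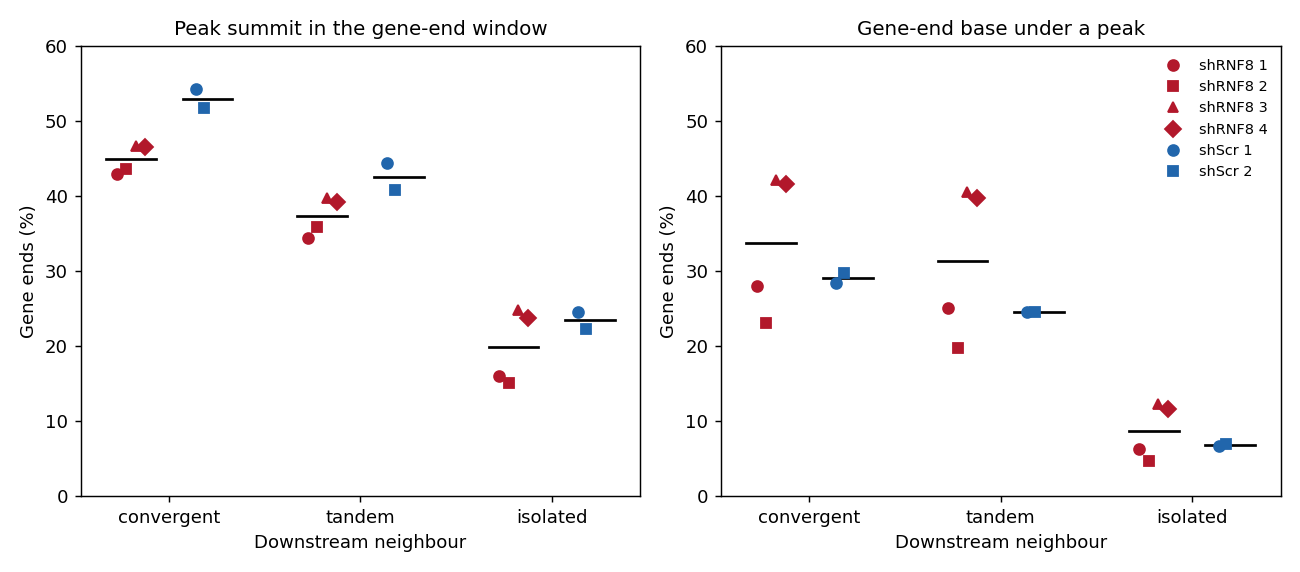
Percent of expressed gene ends (vertical axis) that are convergent, tandem or isolated and have a peak summit in the window (left) or have their last base under a peak (right), 1 point per S9.6 library, with a bar at each group's mean. On the left all 4 shRNF8 libraries lie below both shScr libraries at convergent ends, at 43.0% to 46.7% against 51.7% and 54.3%; on the right shRNF8 libraries 3 and 4 lie above them, at 42.2% and 41.6% against 28.4% and 29.7%.

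The class difference itself was smaller on average in shRNF8 libraries by summits, without passing the test. Convergent minus isolated was 25.1 points ± 3.25 in shRNF8 libraries (SD, n = 4, range 21.9 to 28.6) and 29.5 ± 0.247 in shScr libraries (SD, n = 2), with an exact permutation p = 0.133. Tandem minus isolated differed by -1.72 points between hairpins, and the groups overlapped (exact permutation p = 0.467). Convergent minus tandem was 7.66 ± 0.710 points in shRNF8 libraries (SD, n = 4) and 10.4 ± 0.729 in shScr libraries (SD, n = 2), with an exact permutation p = 0.0667 and 0.2 after adjustment over the 3 pairs of classes. These differences between hairpins were compared after the shares were seen. By summits within chromosome and RNA level, convergent minus isolated was 22.8, 24.6, 16.9 and 18.2 points in shRNF8 libraries 1 to 4, against 24.9 and 24.5 in shScr libraries, and so was lowest in shRNF8 libraries 3 and 4. By the covered last base it was larger on average in shRNF8 libraries, which was not tested. Expressed convergent and isolated ends then averaged 33.7% and 8.74% in shRNF8 libraries, against 29.1% and 6.85% in shScr libraries.

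The share of ends with a peak was higher at genes of higher RNA level in all 3 classes. Of isolated ends of genes under 0.1 CPM, 0.691% to 1.60% had a peak in shRNF8 libraries, against 1.97% and 1.26% in shScr libraries. Of isolated ends of genes over 50 CPM, 26.1% to 39.1% had one in shRNF8 libraries, against 41.0% and 39.0% in shScr libraries. Convergent ends of genes under 0.1 CPM already reached 14.9% to 20.3% in shRNF8 libraries, against 19.95% and 17.9% in shScr libraries. Over 50 CPM, convergent ends reached 49.9% to 52.0% in shRNF8 libraries, against 61.6% and 60.05% in shScr libraries, and the hairpins did not overlap.

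**Figure D3:**
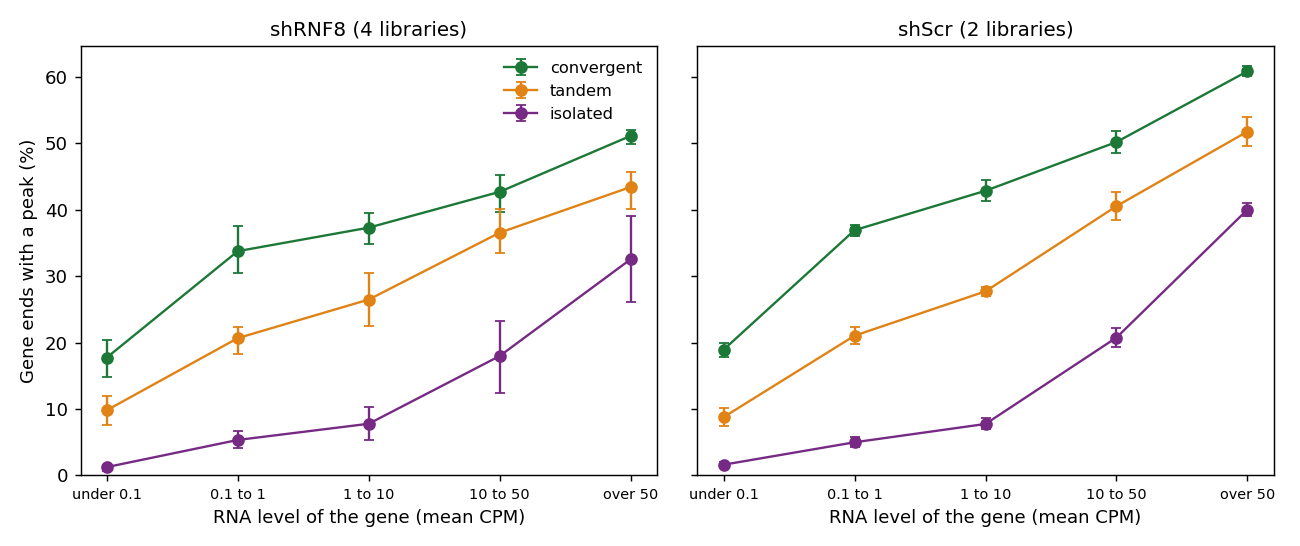
Percent of gene ends with a peak (vertical axis) in 5 ranges of the gene's mean CPM (horizontal axis), by class, for the 4 shRNF8 libraries (left) and the 2 shScr libraries (right). Points are means and bars run from the lowest to the highest library. Each class climbs with the RNA level, and the convergent line stays on top throughout.

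At genes with a neighbour and a mean under 1 CPM, called silent here, the share went with the RNA of the neighbour. Neighbours were called silent by the same rule, which takes in genes of 0.1 to 1 CPM. Silent convergent ends facing an expressed gene had a peak in 32.8%, 34.2%, 40.4% and 38.1% of 819 ends in shRNF8 libraries, against 40.4% and 37.9% in shScr libraries. Silent convergent ends facing a silent gene had one in 3.61% to 7.58% of 554 ends in shRNF8 libraries, against 7.22% and 6.32% in shScr libraries. Silent tandem ends before an expressed gene had one in 19.3% to 27.3% of 477 ends in shRNF8 libraries, against 24.3% and 20.1% in shScr libraries. With both genes expressed, convergent ends reached 46.2% to 49.5% in shRNF8 libraries, against 58.0% and 56.0% in shScr libraries. The window of a convergent end reaches into the end of its neighbour, so 1 summit can lie in the windows of both genes.

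The share was lower where the gap to the neighbour was wide. Expressed convergent ends with a gap of at most 500 bp had a peak in 52.2%, 58.3%, 52.4% and 51.7% of 571 ends in shRNF8 libraries, against 62.5% and 57.4% in shScr libraries. With a gap of 5000 to 10000 bp the shares were 32.9%, 31.7%, 41.1% and 41.6% of 791 ends in shRNF8 libraries, against 44.8% and 43.9% in shScr libraries. Tandem ends with these wide gaps had a peak in 27.7% to 38.8% in shRNF8 libraries, against 39.5% and 36.5% in shScr libraries, although the usable window was longer there, at 5850 bp on average against 3704 bp at the narrowest gaps. At the narrowest tandem gaps the shares were 46.4%, 49.5%, 41.2% and 40.2% in shRNF8 libraries, against 50.5% and 52.6% in shScr libraries.

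**Figure D4:**
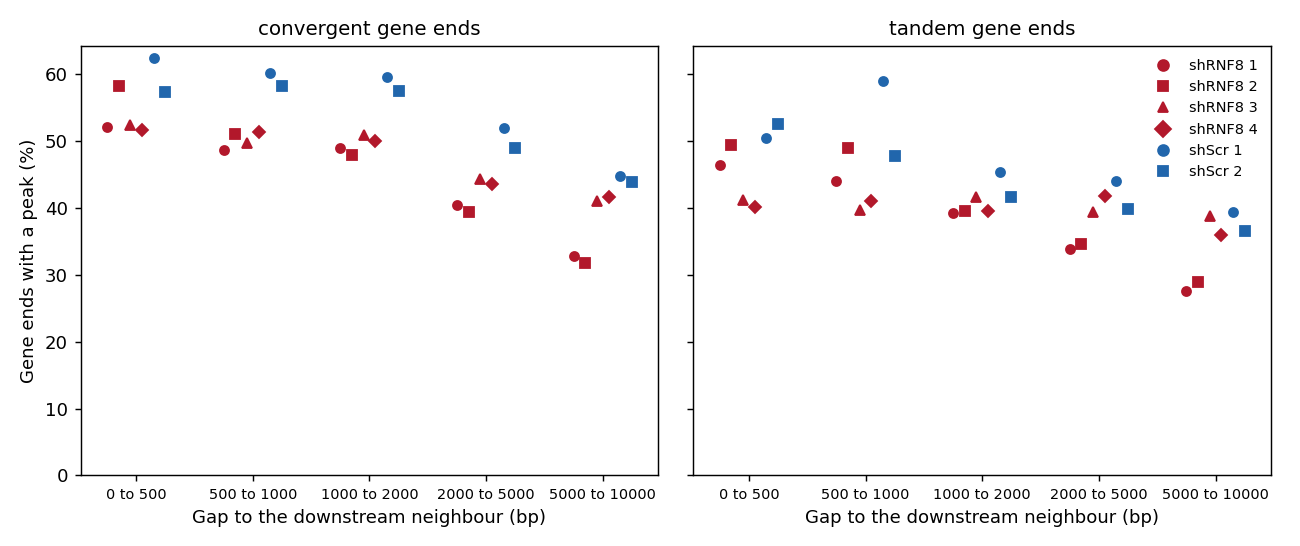
Percent of expressed gene ends with a peak (vertical axis) by the gap to the downstream neighbour in bp (horizontal axis), for convergent (left) and tandem ends (right), 1 point per S9.6 library. Convergent ends range from 51.7% to 62.5% at gaps of at most 500 bp and from 31.7% to 44.8% at gaps over 5000 bp.

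Most gene-end summits lay past the end, as does most of the window. The share past the end was 79.5%, 79.2%, 81.4% and 81.9% in shRNF8 libraries, against 80.6% and 79.9% in shScr libraries, in a window of which 5000 bp lie past the end and 1000 bp before it. The median position was 1715, 1811, 1874 and 1870 bp past the end in shRNF8 libraries, against 1839 and 1799 bp in shScr libraries. The groups overlapped, and their means of 1817 bp in shRNF8 and 1819 bp in shScr libraries differed by -1.38 bp (exact permutation p = 1).

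Summits at expressed ends were densest 1000 to 500 bp before the end, in every class and all 6 libraries. There isolated ends held 64.6, 63.2, 88.1 and 82.8 summits per Mb in shRNF8 libraries, against 97.9 and 82.8 in shScr libraries. Convergent ends held 175.9, 175.2, 161.6 and 148.0 there in shRNF8 libraries, against 224.1 and 190.2 in shScr libraries. Past the end the classes differed in how summits were spread. At expressed isolated ends the density 500 to 1000 bp past the end was 54.6, 51.7, 77.6 and 78.3 summits per Mb in shRNF8 libraries, against 92.4 and 71.1 in shScr libraries. In the last 500 bp of the window it was 28.9, 26.9, 64.1 and 56.5 in shRNF8 libraries, against 59.8 and 44.4 in shScr libraries, lower in all 6. At convergent ends the last 500 bp held 131.6, 135.1, 130.1 and 140.8 summits per Mb in shRNF8 libraries, against 184.9 and 155.8 in shScr libraries, close to the 127.7, 142.5, 118.4 and 139.1 per Mb in shRNF8 libraries and the 181.2 and 153.2 in shScr libraries found 500 to 1000 bp past the end.

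**Figure D5:**
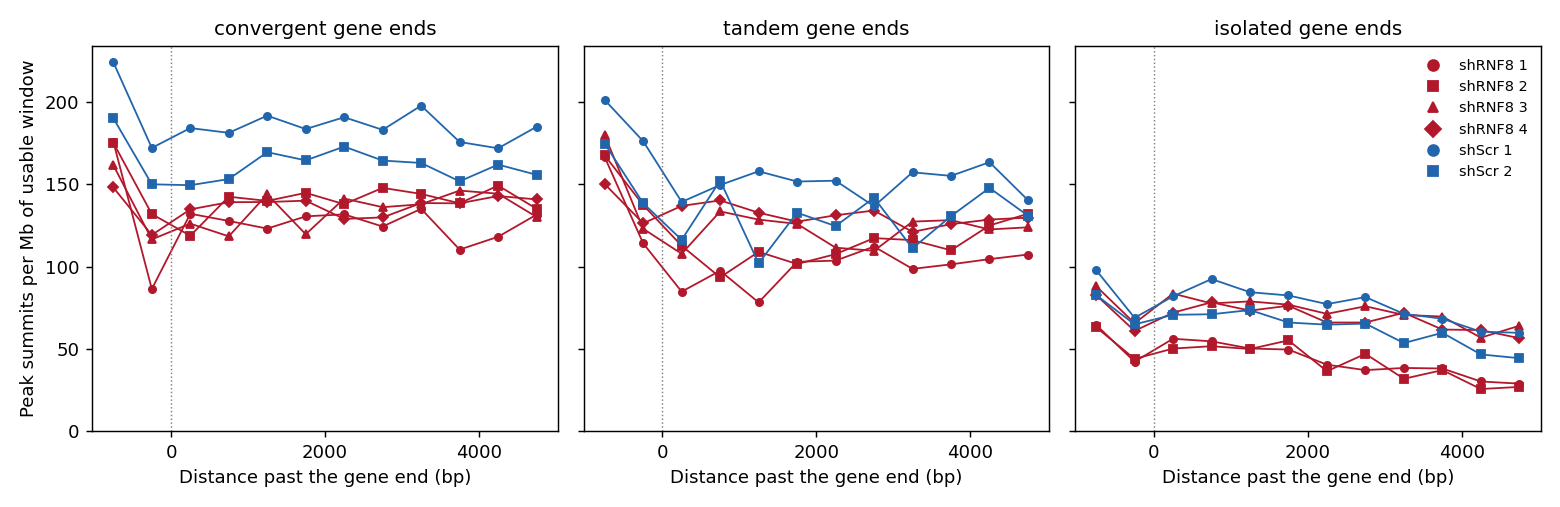
Peak summits per Mb of usable window (vertical axis) in steps of 500 bp along the distance past the gene end (horizontal axis, 0 is the gene end), for expressed convergent, tandem and isolated ends, 1 line per S9.6 library. Every line is highest in its first step, before the gene end. The isolated lines decline past the end, to 26.9 to 64.1 per Mb in the last step, and the convergent lines stay above 110 per Mb throughout the part past the end.

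Where the neighbour lay within 5000 bp, summits were not concentrated in the gap between the genes. At such convergent ends the gap held 116.9, 121.3, 122.9 and 135.1 summits per Mb in shRNF8 libraries, against 179.2 and 151.7 in shScr libraries. The last 1000 bp of the gene itself held 141.1, 167.6, 144.8 and 136.6 in shRNF8 libraries, against 209.2 and 182.7 in shScr libraries. The part of the window inside the neighbour held 148.8, 176.3, 144.5 and 143.0 in shRNF8 libraries, against 204.5 and 182.9 in shScr libraries. The gap was the least dense of the 3 parts in all 6 libraries.

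Within each list, convergent peaks were the broadest and had the highest median fold. Their median width was 780.5, 704, 968 and 925 bp in shRNF8 libraries, against 668 and 779.5 bp in shScr libraries. Isolated peaks measured 596.5, 503, 641 and 662 bp in shRNF8 libraries, against 493 and 584.5 bp in shScr libraries. The authors' fold had a median of 6.22, 5.65, 5.49 and 5.02 at convergent ends in shRNF8 libraries, against 5.59 and 5.97 in shScr libraries. At isolated ends it was 5.54, 5.13, 4.66 and 4.52 in shRNF8 libraries, against 5.0003 and 5.27 in shScr libraries.

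Few gene-end peaks were overlapped by a peak of the RNase-treated library of the same hairpin and number. RNase treatment removes the RNA of hybrids, and the labels give the enzyme only as a code. The overlapped share was 0.128%, 0.294%, 0.975% and 0.346% in shRNF8 libraries, against 0.470% and 0.533% in shScr libraries. These are 8, 20, 81 and 28 peaks in shRNF8 libraries, against 45 and 43 in shScr libraries. shRNF8 library 3 was the highest and its RNase-treated list was also the longest, with 1912 peaks against 254 to 692 in the other treated shRNF8 libraries. The treated shScr lists held 731 and 997 peaks. Untreated lists were far longer, at 32358 to 50963 peaks in shRNF8 libraries and 49277 and 38659 in shScr libraries. The length of the treated lists thus limits how large these shares can be. The exact (Clopper-Pearson) 95% intervals, which cover counting error only, ran from 0.0554% to 0.253% for shRNF8 library 1 and from 0.775% to 1.21% for shRNF8 library 3. The hairpins differed by -0.0658 points (exact permutation p = 0.933). Gene-end peaks were overlapped less often than peaks away from starts and ends, by -0.436 points on average and in 6 of 6 libraries (exact sign-flip permutation p = 0.0312, adjusted p = 0.0352), and the difference from start peaks did not pass (0.118 points, exact sign-flip permutation p = 0.0625).

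Gene ends on chromosomes dense in genes carried peaks most often. The median over the 6 libraries was 40.5% of 586 ends on chromosome 22, 38.2% of 1707 on chromosome 19, 32.5% on chromosome 17 and 32.3% on chromosome 16. It was 7.95% of 604 ends on chromosome 13, 9.67% on chromosome 18 and 10.7% on chromosome 4. The ranges over libraries did not meet, at 36.5% to 42.7% on chromosome 22 and 5.30% to 9.44% on chromosome 13.

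Recurrence differed by class. A peak was found in all 6 libraries at 758 convergent (17.1%), 229 tandem (6.77%) and 504 isolated ends (4.05%), and at 1942 ends of all classes. No library had a peak at 1739 convergent (39.2%), 1639 tandem (48.4%) and 9867 isolated ends (79.3%). Joined into regions, gene-end peaks formed 14066 regions, of which 1440 (10.2%) were found in all 6 libraries and 5777 (41.1%) in 1 library.

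Few regions separated the hairpins completely. A peak in all 4 shRNF8 libraries and neither shScr library was found at 52 gene-end regions (0.370%), where the share over all 73564 S9.6 regions was 0.730%. A peak in both shScr libraries and no shRNF8 library was found at 309 gene-end regions (2.197%), against 2.49% over all regions. Both shares were below those of all regions, and the rule asks for 4 libraries in one case and 2 in the other, so the counts do not compare the hairpins.

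Among regions with peaks in the 4 shRNF8 libraries alone, those with the highest mean fold lay past GON4L, GLYCTK, SIRT6 and MIR6885. The end of SIRT6, the gene of a sirtuin deacetylase, faces CREB3L3 across 1055 bp. The region past this end (chr19:4171123-4172287) had its summit 2277 bp past it, beyond that gap. Its fold was 11.4, 5.001, 11.1 and 6.46 in shRNF8 libraries, with no peak in either shScr library. Past GLYCTK, the gene of glycerate kinase, the region chr3:52294712-52301809 had folds of 13.4, 9.21, 6.96 and 8.11 in shRNF8 libraries. The ends of GON4L and MIR6885 lie inside other genes, and the folds there were 5.65 to 12.3 and 5.65 to 9.74.

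Among regions with peaks in both shScr libraries alone, the highest mean folds were past RPGRIP1, LMAN1, KLB and NPC1. The region past NPC1 (chr18:23528098-23531633), the gene of a cholesterol transporter of the lysosome, had folds of 8.47 and 10.7 in shScr libraries. Past LMAN1 (chr18:59323993-59326295), the gene of a cargo receptor between the endoplasmic reticulum and the Golgi, they were 8.69 and 11.6. The end of RPGRIP1 faces SUPT16H across 171 bp. The region past it (chr14:21352509-21352858) is 350 bp wide and had folds of 13.1 and 10.3. Its summit lay 1478 bp past the end, beyond that gap. KLB, the gene of the FGF19 and FGF21 co-receptor, had folds of 10.9 and 8.95.

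The regions of highest mean fold found in all 6 libraries were wide and often reached over more than the gene end. At convergent ends they lay at C19orf35, C19orf70, NUP188 and MROH1, and were 10534, 43377, 29296 and 34553 bp wide. The summit position was -910 bp at NUP188, before the gene end, and past the end at the others. It lay beyond the gap to the neighbour at C19orf35 (2924 bp, gap 1144 bp) and at MROH1 (2460 bp, gap 106 bp). At C19orf70 it lay within the gap (1844 bp, gap 9936 bp). The end of NUP188, the gene of a nuclear pore scaffold protein, faces SH3GLB2 across 697 bp at chr9:128989322-129018617. Its fold was 35.5, 22.8, 29.9 and 34.8 in shRNF8 libraries, against 29.4 and 30.6 in shScr libraries, and the values overlap. C19orf35 had no RNA (0 CPM) and faces OAZ1, the gene of ornithine decarboxylase antizyme, across 1144 bp. Its fold was 43.8, 18.7, 53.8 and 39.5 in shRNF8 libraries, against 31.8 and 17.2 in shScr libraries.

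At tandem ends they lay past RPLP2, HGH1, ARIH2 and C17orf99. RPLP2, the gene of a ribosomal stalk protein, stands before PNPLA2 across 6025 bp, and the region chr11:811438-859200 spans 47763 bp. Its fold was 52.0, 25.7, 20.6 and 22.8 in shRNF8 libraries, against 21.9 and 18.9 in shScr libraries. At isolated ends they lay at MIR3188, SLC3A2, TMEM86B and SLC29A2. Their summit positions were 2706, -455, -447 and -322 bp, where a negative value lies before the gene end. SLC3A2, the heavy chain of amino acid transporters, had its region at chr11:62876471-62890320, with folds of 27.9, 14.2, 20.3 and 24.1 in shRNF8 libraries, against 28.2 and 25.0 in shScr libraries. The region past MIR3188 had folds of 8.33 to 30.6 in shRNF8 libraries, against 10.8 and 73.8 in shScr libraries, so its place in the order rests on 1 shScr library.

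A list of 12 loci used in work on termination and R-loops, chosen from general knowledge, varied widely. ACTB, the gene of cytoplasmic actin (chr7:5527148-5530601, minus strand), faces LOC221946 across 1603 bp and had an end peak in all 6 libraries. Its summits lay 1081, 1081, 449 and 215 bp past the end in shRNF8 libraries, against 1082 and 1082 bp in shScr libraries. The fold was 34.9, 19.3, 29.5 and 21.3 in shRNF8 libraries, against 15.1 and 16.4 in shScr libraries. All 4 shRNF8 folds were above both shScr folds, which is a description, since a fold depends on the depth and background of its own library. The last base of ACTB lay under a peak in all 6.

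GAPDH, the glycolytic dehydrogenase (chr12:6534405-6538375, plus strand), faces IFFO1 across 1153 bp. It had an end summit in 1 of 4 shRNF8 libraries, 2035 bp past the end with a fold of 26.2, and in both shScr libraries, 1650 and 2098 bp past the end with folds of 26.1 and 29.1. Its last base nevertheless lay under a peak in all 6 libraries, so the other 3 shRNF8 libraries had a peak there whose summit fell elsewhere. TFPT, the gene of an INO80 subunit that faces NDUFA3 across 39 bp, behaved alike, with a summit in 0 of 4 shRNF8 libraries and 1 of 2 shScr libraries and a covered last base in all 6.

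CALM3, a calmodulin gene, had an end summit in 2 shRNF8 libraries and 1 shScr library, and RPL13A, a ribosomal protein gene, in 2 of each. GEMIN7 and ENSA each had one in 3 shRNF8 and 2 shScr libraries. AKIRIN1 had one in 1 shScr library with a fold of 4.30, at 359.1 CPM. EGR1, SNRPN and ZNF554 were listed as negative loci of DRIP work. EGR1 and SNRPN had an end summit in 1 shRNF8 library each, and ZNF554 had none. The last bases of CALM3 and GEMIN7 were covered in all 6 libraries, and that of EGR1 in every library except shRNF8 library 1. Part of a peak lay in the window of EGR1 in all 6. The last bases of SNRPN, ZNF554 and AKIRIN1 were covered in no library.

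In the RNA libraries RNF8 itself fell in shRNF8 cells. It had 9.33, 9.99 and 7.94 CPM (scaled by TMM) in shRNF8 libraries, against 28.9, 29.1 and 28.0 in shScr libraries, a log2 fold change of -1.66 (SE 0.13, edgeR quasi-likelihood test, adjusted p = 0.000165). XRN2 had 154.2, 158.5 and 168.7 CPM in shRNF8 libraries, against 169.0, 138.0 and 126.1 in shScr libraries, and did not pass (log2 fold change 0.15, SE 0.11, edgeR adjusted p = 0.468), but did pass without shScr library 1, at a log2 fold change of 0.28. The end of RNF8 carried no peak, and that of XRN2, which faces NKX2-4 across 5542 bp, carried one in 1 shScr library. Totals were 18121181 to 19383963 counts in shRNF8 libraries and 18147348 to 20006954 in shScr libraries. All 6 mesenchymal markers listed averaged at least 1 CPM, with VIM at 1017 CPM, and so did 4 of 8 luminal markers, with KRT8 at 666 CPM, while ESR1, PGR and CDH1 averaged under 1 CPM. Of 4 markers of other cell types, COL1A1 averaged 2.68 CPM, with a log2 fold change of -0.99 that did not pass (edgeR adjusted p = 0.132), PECAM1 averaged 0.390 CPM, PTPRC averaged 0.00851 CPM and CD3E was at 0.

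Genes with an end peak in all 6 libraries changed in RNA about as often as genes in general. Of these 1942 genes 1595 had enough counts to be tested, and 42 (2.63%) passed an adjusted p of 0.05 in edgeR, against 356 of 14018 genes (2.54%) overall. Higher in shRNF8 cells were 3 of them (0.188%, against 0.970% of all genes), and lower were 39 (2.45%, against 1.57%). The median log2 fold change was -0.04, against -0.00 for all genes tested. By class, 2 convergent genes were higher and 14 lower of 643 tested, 0 tandem genes higher and 9 lower of 204, and 1 isolated gene higher and 12 lower of 476. Among genes with no end peak in any library, 101 of 6716 were higher (1.5%) and 63 lower (0.938%).

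The genes with an end peak in all 6 libraries that were higher were MOK, a kinase of the MAP kinase family, POLR2A, the largest subunit of RNA polymerase II, and UNC13D, a factor of granule exocytosis. POLR2A had 437.1, 431.9 and 363.6 CPM in shRNF8 libraries, against 330.2, 260.6 and 273.3 in shScr libraries, without overlap (log2 fold change 0.51, SE 0.11, edgeR adjusted p = 0.0402). MOK, which faces WDR20, changed by 0.59 (edgeR adjusted p = 0.0376), and UNC13D, which faces UNK across 1421 bp, by 0.91 (edgeR adjusted p = 0.0438). All 3 lost their call on leaving out any RNA library other than shScr library 1.

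Those lower with the smallest p were RAB3B, CDKN1B, PTGES and EEF1A2. RAB3B, a GTPase of vesicle release, had 185.6, 182.0 and 167.8 CPM in shRNF8 libraries, against 288.1, 345.6 and 339.8 in shScr libraries (log2 fold change -0.86, SE 0.10, edgeR adjusted p = 0.00218). CDKN1B, the cyclin-dependent kinase inhibitor p27, had 51.0, 47.4 and 49.6 CPM in shRNF8 libraries, against 83.3, 86.3 and 80.9 in shScr libraries (log2 fold change -0.76, SE 0.09, edgeR adjusted p = 0.00259). Neither gene's groups overlapped. PTGES, a prostaglandin E synthase, changed by -0.67 (edgeR adjusted p = 0.00444) and EEF1A2, a translation elongation factor, by -0.81 (edgeR adjusted p = 0.00551), which lost its call without shRNF8 library 3.

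These counts rest on single RNA libraries. Without shScr library 1 the 42 genes became 466 (187 higher, 279 lower), while without shRNF8 library 1, 2 or 3 they became 7, 9 and 4, and without shScr library 2 or 3, 17 and 11, with none higher in these 5 cases.

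A list of 33 genes covered cleavage, termination and hybrid removal. Among them were XRN2, PCF11, the CPSF and CSTF subunits, RNASEH1 and the RNASEH2 subunits. All 33 were tested and none passed, where 2.54% of all genes tested did, a rate at which a list of this size may hold none. The highest log2 fold change was 0.30, for RNASEH2C, and the median was 0.09, against -0.00 for all genes tested, and the smallest edgeR adjusted p was 0.129, for CPSF2. At 23 of their 33 ends at least 1 library had a peak, where 36.0% of all gene ends used had one. All 33 genes averaged at least 1 CPM, and expressed genes had end peaks more often. All 6 libraries had a peak at PABPN1, a poly(A)-binding protein gene whose end lies inside another gene, where 7.47% of all gene ends used had one in all 6. At DHX9, a helicase gene with an isolated end, 5 libraries had one.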

How the data were processed

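Per the labels, DNA-RNA hybrids were pulled down from sonicated chromatin with S9.6, and polyadenylated RNA was sequenced. Tools named by the submitters' processing notes are Trim Galore 0.6.6, Bowtie2 2.2.6, STAR 2.7.9a, SAMtools 1.14, Picard 2.10.9, MACS2 2.2.7.1, deepTools 3.5.1 and Subread 2.0.1, on the build hg38, with no roles. For each library the authors deposited narrow peaks, every peak with its fold over local background (a linear ratio) and the -log10 of the p-value and q-value of each peak (the lowest -log10 q was 2.00 to 2.03). The deposited RNA table holds raw fragment counts per gene from featureCounts, per the file headers, with no strand option set, so reads of overlapping genes cannot be told apart. Input libraries, 3 in number, were not analysed here.

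Peaks were assigned to gene ends by their summit, and a peak in several windows went to the nearest end for positions, widths and folds. A gene end counted as having a peak if any gene-end summit lay in its window. Hairpins were compared by exact permutation over libraries and classes by exact sign flips of within-library differences, with Benjamini-Hochberg adjustment. RNA counts were tested with edgeR 4.0.16 (quasi-likelihood, TMM, filterByExpr, 14018 genes) in R 4.3.3, with DESeq2 1.42.0 as an alternative, and other steps ran in Python 3.11.15. The pileup recovered from fold and p returned the deposited -log10 p to within 0.001 for at least 99.97% of peaks. Scripts were tested on simulated data. The members and lists were chosen with earlier results of these data known. Regions named are the 4 of highest mean fold in each class among those in all 6 libraries, and the 4 highest found with 1 hairpin alone. RNA genes named are RNF8, XRN2 and the 4 higher and 4 lower with the smallest p among genes with an end peak in all 6 libraries (3 were higher). RefSeq promoters of chromosome 8 were not used here. Some genes of the lists are not reported here. The printed promoters, the count by covered last base, the contrasts within chromosome and RNA level and the result without shRNF8 libraries 3 and 4 were chosen after the data were seen.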

Additional observations from a re-analysis of the deposited data

How the results depend on the processing

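Convergent and tandem minus isolated kept their sign in every alternative and library left out: 25.9 to 27.5 and 17.4 to 18.6 points without each replicate, where 5 libraries cannot pass, 28.7 and 19.4 points without shRNF8 libraries 3 and 4 (exact permutation p = 0.125 each), and 35.5 and 37.1 points when any base of the window was counted, where tandem ends passed convergent ends in 6 of 6 libraries. The hairpin difference at convergent, tandem and isolated ends kept its sign under the alternatives of threshold, equal peak number, depth, window, gene set, neighbour distance and replicate, with ranges of -7.31 to -4.94, -4.64 to -1.39 and -2.73 to -0.997 points without each replicate and -6.97, -3.94 and -2.59 points at matched depth, and reversed when the last base was counted (3.84, 4.93 and 1.02 points). The difference in median position had no stable sign, at 9.13 bp with genes of at least 2000 bp, 20.8 bp in a window from 0 to 5000 bp and -21.1 to 32.9 bp without each replicate. The RNase difference ran from -0.246 to 0.0368 points without each replicate. Replicate numbers 1 and 2 are only numbers here. With the replicate block the hairpin differences were -0.525 points for the share of peaks at gene ends, -4.22, -5.01 and -7.93 points at isolated, tandem and convergent ends, -56 bp and -0.291 points for RNase overlap. The genes with an end peak changed in RNA were 42, 39 with upper-quartile scaling, 71 with no filter, 99 with DESeq2, 190 with an end peak in at least 1 library, and 4 to 466 without each replicate. The replicate block gave 53. The cause of the changes in these counts was not tested. Deviations of log CPM from the hairpin's mean correlated at -0.0544, 0.108 and -0.233 between same-numbered RNA samples, which showed no pairing by number. Of 90 values for named RNA genes under alternatives, none changed sign and 16 lost their call. Total DRIP read depth is unknown.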
